A study of Mus musculus with 4 samples.

Results

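The transcripts described here are those of 9 genes that write, maintain, remove or bear metabolically on cytosine methylation, measured in donor-derived myeloid progenitors of transplanted mice. They were taken by symbol, as the rows *Dnmt1*, *Dnmt3a*, *Dnmt3b*, *Uhrf1*, *Tet1*, *Tet2*, *Tet3*, *Idh1* and *Idh2*. All 9 were among the 12067 genes of the table, and all 9 entered the test. Between *BcorΔE9-10* and *BcorWT* progenitors none of the 9 passed the test. The largest difference was that of *Tet3*, which was 1.60-fold higher in *BcorΔE9-10* cells with a 95% interval from 0.875 to 2.91-fold. The order of the genes was much the same in all 4 libraries, with *Dnmt1* and *Uhrf1* at the top and *Tet1* at the bottom.

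The experiment asked how loss of the C-terminal part of the corepressor Bcor alters expression in KL cells, which are lineage-negative, cKIT-positive and Sca-1-negative bone marrow cells. There were 2 libraries of *BcorΔE9-10* origin, labelled as carrying an scl-Cre-ERT transgene and a floxed *Bcor* allele on the X chromosome. There were 2 of *BcorWT* origin, labelled with the floxed allele alone, so the controls carry the floxed exons 9 and 10 but no Cre. The Cre transgene is tamoxifen-inducible and driven in haematopoietic stem cells by an SCL (*Tal1*) element, so that KL cells carry the deletion by descent. Per the study's methods, donors of both genotypes received 5 mg of tamoxifen in all at 3 to 6 months of age. The series description gives a transplant of whole marrow into *Ptprca* recipients and a sort at 20 weeks, here of CD45.2-positive donor KL cells. The methods describe transplants of marrow and of sorted KL cells without saying which gave these libraries, and their details for marrow, 500000 cells into female recipients irradiated with 5.5 Gy, were assumed to apply. Male donors are assumed here, following what the methods say of animals used for molecular analyses. The labels do not say whether the 2 libraries of a genotype came from separate donors or recipients, so p-values measure the spread between these libraries, which may be technical in part.

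DNA methylation in mammals is set on cytosines of CpG dinucleotides by the de novo methyltransferases Dnmt3a and Dnmt3b. It is copied at replication by Dnmt1, which Uhrf1 brings to hemimethylated DNA. Tet1, Tet2 and Tet3 are dioxygenases that oxidise 5-methylcytosine to 5-hydroxymethylcytosine and beyond, with 2-oxoglutarate as co-substrate. Idh1 in the cytosol and Idh2 in mitochondria make 2-oxoglutarate from isocitrate, and their mutant forms in leukaemia make 2-hydroxyglutarate, which inhibits the Tet enzymes. *Dnmt3a*, *Tet2*, *Idh1* and *Idh2* are recurrently mutated in human myeloid disease, and *Dnmt3a* and *Tet2* restrain self-renewal of mouse haematopoietic stem cells. Uhrf1, Idh1 and Idh2 do not themselves modify cytosine, and only transcripts were measured here, not methylation, protein or metabolites.

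Levels are CPM, the counts of a gene brought to a fixed library total and scaled between libraries with edgeR's TMM factors. Quant-seq reads come from the 3′ end of a polyadenylated transcript, so a transcript yields a tag irrespective of its length and the CPM were not divided by length. Totals ranged from 3825289.5 to 6253100.5 counts, and 3 counts, the limit that a count of 0 allows, corresponded to 0.489 to 0.876 CPM. Poisson and Wilson intervals and this limit cover counting error only, since no molecular identifiers are described. *Gm42418*, an rRNA-like transcript, took 16.3% and 14.3% of the counts in the *BcorΔE9-10* libraries, and 27.9% and 1.43% in *BcorWT* replicates 1 and 2. The *BcorWT* libraries were the least alike of the 6 pairs (Pearson's r of log2 CPM across genes 0.893), and the *BcorΔE9-10* libraries the most alike (0.947). *Bcor* itself had a log2 fold change of 0.25 (standard error 0.36), which does not check the genotype, because the reads come from the 3′ end and the deleted exons are internal.

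Markers of the sorted KL cell were present, with all 10 of a list of 10 in the table. Their summed level was 8760 to 11464 CPM in *BcorΔE9-10* and 11579 to 11589 CPM in *BcorWT* cells, and *Kit* was at 52.1, 61.9, 53.7 and 29.4 CPM in *BcorΔE9-10* replicates 1 and 2 and *BcorWT* replicates 1 and 2. *Mpo* alone, at 6888, 4284, 6692 and 5331 CPM in the same order, made up much of each sum. By gene, 5 of the 10 were higher and 5 lower in *BcorΔE9-10* cells, with a median log2 fold change of 0.001. Although the sort excluded Gr-1-positive cells, all 10 mature neutrophil markers were also in the table. They summed to 63222 and 154702 CPM in the *BcorΔE9-10* and to 94238 and 142239 CPM in the *BcorWT* libraries, so their level varied within each genotype. In other lists the sums differed between genotypes, although no gene of these lists passed the test (smallest edgeR adjusted p 0.419). Erythroid markers, 9 of 12 in the table, summed to 166 to 189 CPM in *BcorΔE9-10* against 73.9 to 80.5 CPM in *BcorWT* cells. Eosinophil, basophil and mast cell markers, 10 of 11 in the table, summed to 252 to 282 against 593 to 768 CPM. *Xist* and *Tsix*, taken as recipient transcripts because donors were assumed to be male, summed to 4.44 to 7.01 against 34.2 to 35.9 CPM. The Y-linked *Ddx3y*, *Eif2s3y*, *Kdm5d* and *Uty* summed to 103 CPM in both *BcorΔE9-10* libraries, 107 CPM in *BcorWT* replicate 1 and 49.7 CPM in *BcorWT* replicate 2. Whether the assumed donor sex holds for each library, or recipient cells entered the sort of the controls, was not tested. Of the T and NK cell list 4 of 12 genes were in the table, without *Cd3e*. The part of these populations in the values below was not tested, and in sorted bulk RNA fewer cells of a type and less RNA per cell cannot be told apart.

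Because the genes divide into those tied to DNA replication and those that are not, the promoters of the maintenance pair are shown first. The windows run from 250 bases before to 50 after an annotated start in RefSeq (GRCm38.p6), in which all 9 genes had at least 1 window (15 windows in all). The E2F motif was searched on both strands in 4 versions of 8 letters, TTTCCCGC, TTTGGCGC, TTTCGCGC and TTTGCCGC. E2F factors drive genes of the G1 to S transition. Any of these was found in 2.27% of 32851 windows, and by gene in 2.61% of all genes, in 9 of the 22 S-phase genes that had a window, from a list of 28, and in 2 of the 9 genes described here. These were *Dnmt1*, on the minus strand at chr9:20952574-20952873, and *Uhrf1*, on the plus strand at chr17:56304063-56304362, each in a single window. *Dnmt1* had 3 windows and *Uhrf1* 2, and their other windows, with 2 to 12 CpG dinucleotides, held no match. In both sequences the motif matches are in capitals. A match is a description of letters and not of a bound site, and reads from the 3′ end do not show which start is used.
Dnmt1: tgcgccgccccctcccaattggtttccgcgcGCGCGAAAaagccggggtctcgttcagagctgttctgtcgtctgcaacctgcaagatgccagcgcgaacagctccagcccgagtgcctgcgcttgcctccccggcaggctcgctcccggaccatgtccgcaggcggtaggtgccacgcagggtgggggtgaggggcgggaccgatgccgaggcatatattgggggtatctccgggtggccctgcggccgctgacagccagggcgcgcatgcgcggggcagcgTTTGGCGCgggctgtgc
Uhrf1: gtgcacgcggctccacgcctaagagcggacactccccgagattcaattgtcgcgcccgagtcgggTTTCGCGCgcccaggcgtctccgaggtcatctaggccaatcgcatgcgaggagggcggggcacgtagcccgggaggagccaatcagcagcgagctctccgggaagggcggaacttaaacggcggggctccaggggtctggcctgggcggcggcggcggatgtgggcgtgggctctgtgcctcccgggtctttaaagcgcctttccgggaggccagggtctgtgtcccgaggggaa
In the *Dnmt1* window the first match, GCGCGAAA, is the reverse complement of TTTCGCGC and begins 219 bases before the start of that window, and the second, TTTGGCGC, lies after it. The match in the *Uhrf1* window, TTTCGCGC, begins 185 bases before the start of that window. For both genes another annotated window, without a match, lies upstream of the one shown. It is at chr9:20952930-20953229 for *Dnmt1* and at chr17:56303087-56303386 for *Uhrf1*. The *Dnmt1* and *Uhrf1* windows shown each held 33 CpG dinucleotides against a median of 7 over all windows. The *Tet3* window, on the minus strand at chr6:83441629-83441928, is shown because *Tet3* had the largest difference between genotypes, with its 22 CpG dinucleotides in capitals. It held none of the motifs.
Tet3: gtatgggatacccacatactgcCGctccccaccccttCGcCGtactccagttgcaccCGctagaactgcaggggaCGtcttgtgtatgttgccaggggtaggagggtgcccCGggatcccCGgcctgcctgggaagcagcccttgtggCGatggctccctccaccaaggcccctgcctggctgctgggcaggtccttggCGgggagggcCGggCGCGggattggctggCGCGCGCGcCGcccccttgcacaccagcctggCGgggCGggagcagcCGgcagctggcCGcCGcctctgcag
CpG-rich starts were common to the group, since 14 of the 15 windows were above the median of all windows. Taking the richest window of each gene, the CpG count ran from 17 in *Tet1* to 57 in *Tet2*, the latter higher than in 99.8% of windows.

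**Figure D1:**
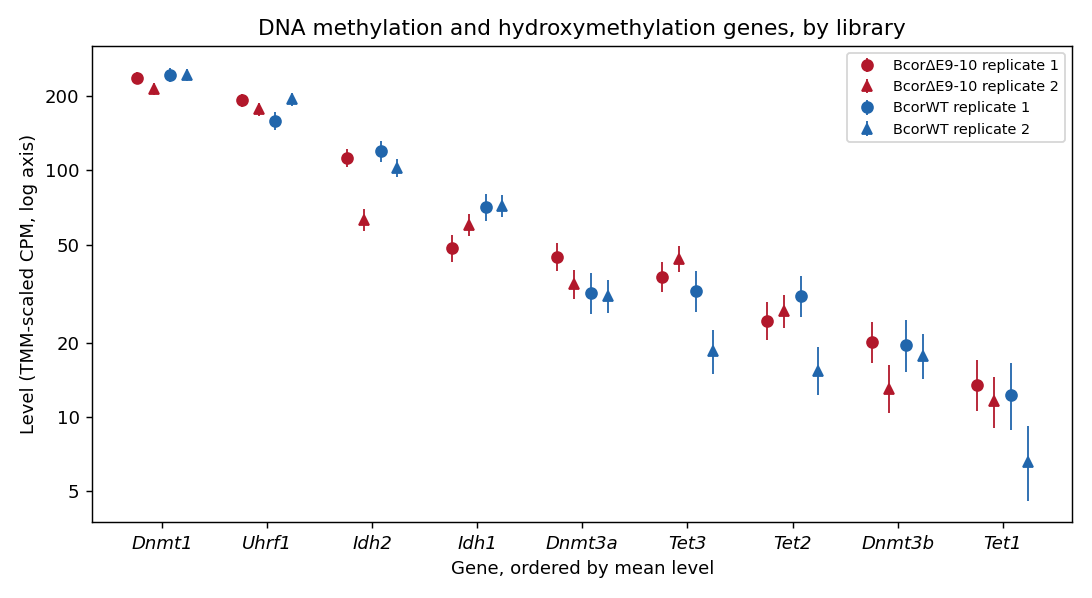
TMM-scaled CPM on a log axis for each gene in each of the 4 libraries, with genes ordered by mean level. Points are single libraries and bars are exact 95% Poisson intervals of the counts. *Dnmt1* and *Uhrf1* are highest in all libraries, and the 3 *Tet* genes are lowest in *BcorWT* replicate 2.

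*Dnmt1*, the maintenance methyltransferase (ENSMUSG00000004099, chromosome 9 from 20907209 to 20959888 in GRCm38), was the most abundant of the genes. It had 1281 and 1312 counts in *BcorΔE9-10* replicates 1 and 2, and 834 and 1296 counts in *BcorWT* replicates 1 and 2. After scaling these were 236.8 and 213.9 CPM against 243.6 and 243.9 CPM. Both *BcorΔE9-10* libraries were thus just below both *BcorWT* libraries, and the latter were nearly equal. The means were 225 ± 16.2 and 244 ± 0.232 CPM (SD, n = 2 each), a log2 fold change of -0.11 (standard error 0.31, 95% interval -0.83 to 0.60, edgeR adjusted p = 0.974). It was -0.19 without *BcorΔE9-10* replicate 1 and -0.038 without replicate 2. The interval leaves room for changes down to 0.564-fold and up to 1.52-fold.

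*Uhrf1*, the ubiquitin ligase that reads hemimethylated CpGs for Dnmt1 (chromosome 17 from 56303321 to 56323486), stood at 192.6 and 176.4 CPM in *BcorΔE9-10* cells and at 158.0 and 193.8 CPM in *BcorWT* cells. The groups overlapped, with the lowest and the highest value both in *BcorWT*. The log2 fold change was 0.07 (standard error 0.31, 95% interval -0.66 to 0.79, edgeR adjusted p = 0.986), and it became -0.075 without *BcorWT* replicate 1. The ratio of *Uhrf1* to *Dnmt1* was 0.813 and 0.825 in *BcorΔE9-10* and 0.649 and 0.795 in *BcorWT* libraries. The pair therefore kept close to the same proportion in all libraries but *BcorWT* replicate 1.

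Of the de novo enzymes, *Dnmt3a* (chromosome 12 from 3806007 to 3914443) had 241 and 212 counts in *BcorΔE9-10* and 109 and 164 counts in *BcorWT* cells, or 44.5 and 34.6 CPM against 31.8 and 30.9 CPM. Both *BcorΔE9-10* libraries lay above both *BcorWT* libraries, although replicate 2 exceeded the higher *BcorWT* value by little. The means were 39.5 ± 7.06 and 31.3 ± 0.686 CPM (SD, n = 2 each), and the log2 fold change was 0.33 (standard error 0.32, 95% interval -0.40 to 1.07, edgeR adjusted p = 0.945). It was 0.14 without *BcorΔE9-10* replicate 1 and 0.51 without replicate 2.

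*Dnmt3b*, the other de novo enzyme (chromosome 2 from 153649450 to 153687730), was lower in level and did not separate the genotypes. It had 20.1 and 13.0 CPM in *BcorΔE9-10* against 19.6 and 17.7 CPM in *BcorWT* libraries, so that the *BcorΔE9-10* libraries held both the highest and the lowest value. Its log2 fold change of -0.17 (standard error 0.39, 95% interval -1.06 to 0.73, edgeR adjusted p = 0.974) became 0.12 without *BcorΔE9-10* replicate 2. The ratio of *Dnmt3a* to *Dnmt3b* was 2.21 and 2.65 in *BcorΔE9-10* and 1.63 and 1.74 in *BcorWT* libraries, without overlap. Ratios carry the errors of both counts, and *Dnmt3b* had only 67 to 109 counts per library.

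All 3 dioxygenase genes had higher fitted levels in *BcorΔE9-10* cells, and in all 3 the difference rested largely on *BcorWT* replicate 2. *Tet3* (chromosome 6 from 83362373 to 83459084) was the most abundant, with 200 and 268 counts in *BcorΔE9-10* and 111 and 98 counts in *BcorWT* cells. On the scaled level it had 37.0 and 43.7 CPM against 32.4 and 18.4 CPM. Both *BcorΔE9-10* libraries were above both *BcorWT* libraries, but *BcorΔE9-10* replicate 1 and *BcorWT* replicate 1 were close, and their 95% Poisson intervals (32.02 to 42.5 and 26.7 to 39.0 CPM) overlapped. The means were 40.3 ± 4.75 and 25.4 ± 9.88 CPM (SD, n = 2 each), a log2 fold change of 0.67 (standard error 0.37, 95% interval -0.19 to 1.54, edgeR adjusted p = 0.945). It was 0.31 without *BcorWT* replicate 2 and 1.12 without *BcorWT* replicate 1.

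*Tet2*, the dioxygenase gene most often mutated in myeloid disease (chromosome 3 from 133463679 to 133545139), had 24.6 and 26.9 CPM in *BcorΔE9-10* and 31.0 and 15.4 CPM in *BcorWT* libraries. The *BcorΔE9-10* values were close together and lay between the *BcorWT* values, the highest and the lowest of the 4. The log2 fold change of 0.16 (standard error 0.41, 95% interval -0.78 to 1.10, edgeR adjusted p = 0.974) turned to -0.27 without *BcorWT* replicate 2 and rose to 0.73 without *BcorWT* replicate 1, so its direction depended on which control was used.

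*Tet1* (chromosome 10 from 62804570 to 62908996) was the lowest of the 9 genes in every library. It had 73 and 71 counts in *BcorΔE9-10* and 42 and 35 counts in *BcorWT* cells, which gave 13.5 and 11.6 CPM against 12.3 and 6.59 CPM. *BcorWT* replicate 1 fell between the *BcorΔE9-10* libraries and *BcorWT* replicate 2 well below them. The log2 fold change was 0.43 (standard error 0.47, 95% interval -0.65 to 1.51, edgeR adjusted p = 0.950), with 0.03 without *BcorWT* replicate 2 and 0.92 without *BcorWT* replicate 1.

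The spread of *Tet2* and *Tet3* within *BcorWT* was more than counting error. *BcorWT* replicate 1 exceeded replicate 2 by 1.86-fold for *Tet1*, 2.01-fold for *Tet2* and 1.76-fold for *Tet3*. For *Tet2* the 95% Poisson intervals were 25.3 to 37.4 and 12.3 to 19.2 CPM, and for *Tet3* 26.7 to 39.0 and 15.0 to 22.5 CPM, without overlap. The intervals for *Tet1*, 8.84 to 16.6 and 4.59 to 9.16 CPM, met at their ends. Ratios of this size were not rare between the *BcorWT* libraries, since 16.8%, 14.7% and 19.2% of all genes had at least the ratio of *Tet1*, *Tet2* and *Tet3*, against a median of 1.03 over all genes. Counted in either direction, 26.2% of genes differed by at least as much as *Tet2*. Summed, the *Tet* genes were at 75.0 and 82.2 CPM in *BcorΔE9-10*, at 75.6 CPM in *BcorWT* replicate 1 and at 40.5 CPM in *BcorWT* replicate 2. The 3 methyltransferase genes summed to 301 and 261 CPM in *BcorΔE9-10* and 295 and 292 CPM in *BcorWT* cells. The ratio of the methyltransferase to the dioxygenase sum was therefore alike in 3 libraries (4.02, 3.18 and 3.90 in the same order) and higher, at 7.23, in *BcorWT* replicate 2.

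Both isocitrate dehydrogenase genes had lower fitted levels in *BcorΔE9-10* cells. *Idh1*, which encodes the cytosolic enzyme (chromosome 1 from 65158616 to 65186500), had 48.2 and 60.0 CPM in *BcorΔE9-10* against 70.7 and 71.5 CPM in *BcorWT* libraries. Both *BcorΔE9-10* values were below both *BcorWT* values, which were almost equal. The means were 54.1 ± 8.31 and 71.1 ± 0.592 CPM (SD, n = 2 each), or 0.761-fold, a log2 fold change of -0.39 (standard error 0.31, 95% interval -1.11 to 0.32, edgeR adjusted p = 0.945). Its sign was negative whichever library was left out, with values from -0.56 to -0.25.

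*Idh2*, which encodes the mitochondrial enzyme (chromosome 7 from 80094846 to 80115392), had 607 and 386 counts in *BcorΔE9-10* and 410 and 542 counts in *BcorWT* cells. The scaled levels were 112.2 and 62.9 CPM against 119.7 and 102.0 CPM, so that *BcorΔE9-10* replicate 2 alone was low, 1.78-fold below replicate 1 of its own genotype. The log2 fold change of -0.34 (standard error 0.37, 95% interval -1.20 to 0.52, edgeR adjusted p = 0.950) became 0.022 without that library. *Dnmt3b* showed the same library apart, with a 1.54-fold difference between the *BcorΔE9-10* replicates.

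**Figure D2:**
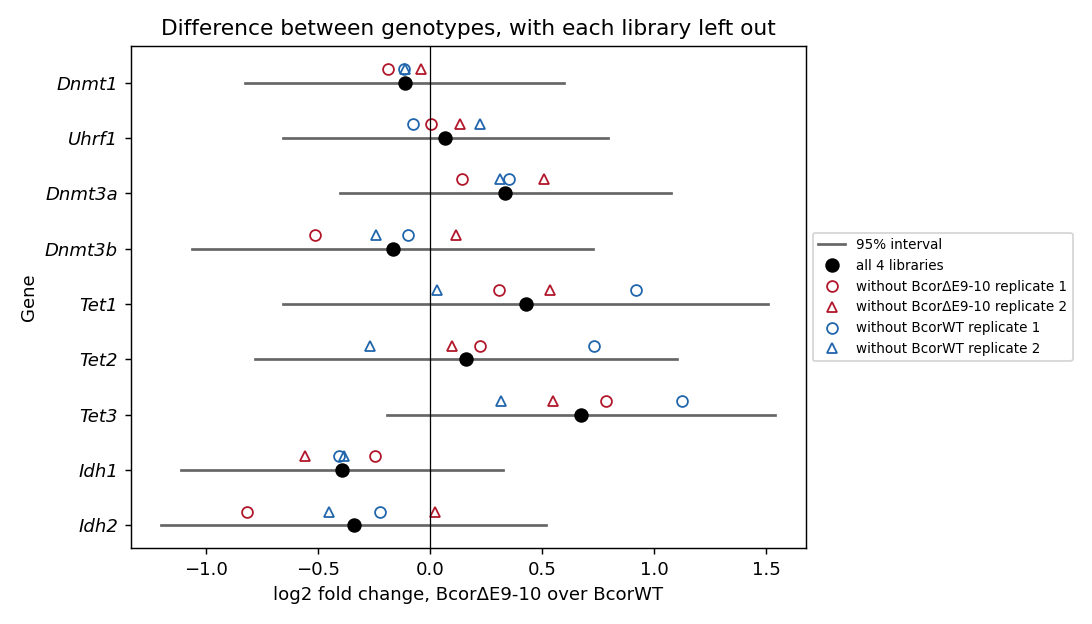
Log2 fold change of each gene (*BcorΔE9-10* over *BcorWT*) with its 95% interval from edgeR (black) and after leaving out each library in turn (open symbols). All 9 intervals include 0, and the open symbols of *Dnmt3b*, *Uhrf1*, *Tet2* and *Idh2* fall on both sides of 0.

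Across the group, edgeR's quasi-likelihood test called 0 of the 9 genes at an adjusted p under 0.05, where it called 2 of 12067 genes (0.0166%) overall. At an unadjusted p under 0.05 it gave 0 of 9, against 4.42% of all genes, and limma-voom and DESeq2 likewise gave 0 of 9 at either level. With *BcorWT* replicate 1 left out, the log2 fold change was 1.12 for *Tet3* and 0.73 for *Tet2*. Without *BcorWT* replicate 2 these were 0.31 and -0.27. Both fits assume the lone control to vary like the *BcorΔE9-10* libraries. The groups did not overlap for 4 of the 9 genes, 2 above (*Dnmt3a*, *Tet3*) and 2 below (*Dnmt1*, *Idh1*), against 33.9% of all genes, 16.8% above and 17.1% below. The share of separated genes was thus near the background, with 5 fitted values above and 4 below 0. The median log2 fold change was 0.07 over the 9 genes and -0.03 over all genes.

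The 9 mean levels spanned 21.4-fold. From the highest the means over all 4 libraries were 235 CPM for *Dnmt1*, 180 CPM for *Uhrf1*, 99.2 CPM for *Idh2*, 62.6 CPM for *Idh1*, 35.4 CPM for *Dnmt3a*, 32.9 CPM for *Tet3*, 24.5 CPM for *Tet2*, 17.6 CPM for *Dnmt3b* and 10.98 CPM for *Tet1*. The ranges over libraries were separate between *Dnmt1* and *Uhrf1*, between *Uhrf1* and *Idh2* and between *Idh1* and *Dnmt3a*. The other neighbours in this order overlapped in range. *Idh2* was above *Idh1*, *Tet3* above *Tet2* and *Dnmt3b* above *Tet1* in 4 of 4 libraries, whereas *Dnmt3a* was above *Tet3* in 2 of 4 and *Tet2* above *Dnmt3b* in 3 of 4. Levels of different genes also depend on how well each 3′ end is primed and annotated, which was not measured.

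How a family divides its counts does not depend on library scaling, and is given as a description without a test, since the smallest two-sided p that an exact permutation of 2 against 2 libraries allows is 0.333. Within the methyltransferases *Dnmt1* held 78.5% and 81.8% of counts in *BcorΔE9-10* and 82.6% and 83.4% in *BcorWT* libraries. *Dnmt3a* held 14.8% and 13.2% against 10.8% and 10.6%, means of 14.0 ± 1.10% and 10.7 ± 0.169% (SD, n = 2 each). The *Dnmt3a* shares were higher in both *BcorΔE9-10* libraries, but the 95% Wilson intervals of *BcorΔE9-10* replicate 2 (11.6 to 15.0%) and *BcorWT* replicate 1 (9.02 to 12.9%) overlapped. *Dnmt3b* held 6.68% and 4.99% against 6.63% and 6.05%, with overlap.

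Within the dioxygenases *Tet2* held 32.8% and 32.7% of the *Tet* counts in *BcorΔE9-10* and 40.9% and 38.1% in *BcorWT* libraries. *Tet3* held 49.3% and 53.2% against 42.9% and 45.6%, and *Tet1* 17.98% and 14.1% against 16.2% and 16.3%. The *BcorWT* libraries, although apart in the level of all 3 genes, were close in all 3 shares. The mean share of *Tet2* differed by -6.78 percentage points in *BcorΔE9-10* cells (-8.18 to -5.39 with 1 library left out) and that of *Tet3* by 6.999 points. The 95% Wilson intervals of the *Tet2* share were 28.4 to 37.5% and 28.8 to 37.0% in *BcorΔE9-10* replicates 1 and 2. In *BcorWT* replicates 1 and 2 they were 35.1 to 47.0% and 31.9 to 44.8%. Every pair of libraries across genotypes thus overlapped in these intervals. Overlap of intervals does not test the difference between libraries, so it does not show that the shares differ by counting error only. Shares within a family sum to 100%, so those of *Tet2* and *Tet3* are not independent. Of the isocitrate dehydrogenase counts *Idh1* held 30.1% and 48.8% in *BcorΔE9-10* and 37.1% and 41.2% in *BcorWT* libraries, with both extremes in *BcorΔE9-10* cells.

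**Figure D3:**
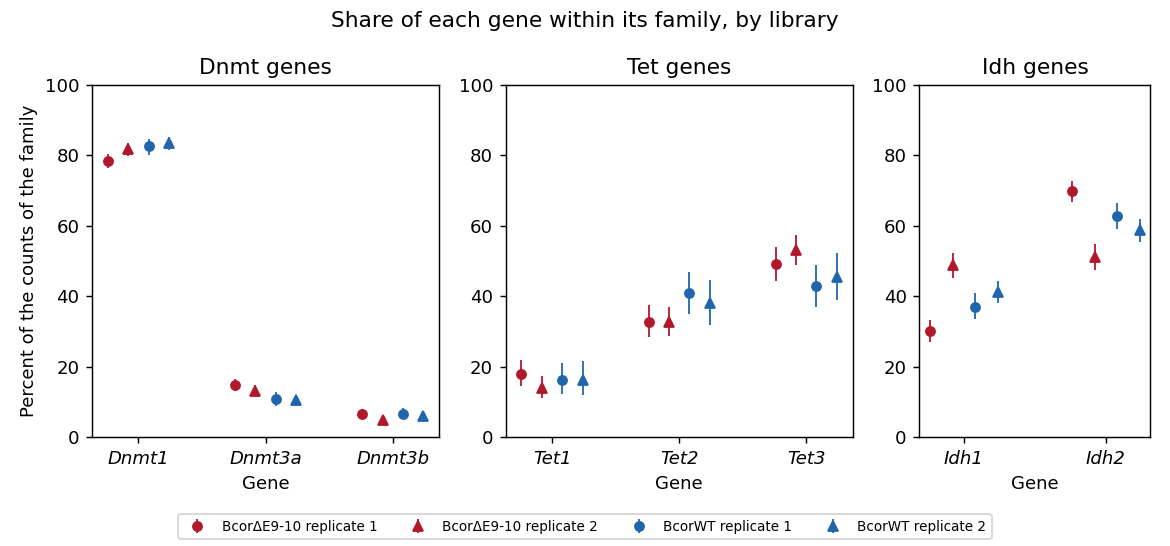
Share of each gene in the counts of its family (percent, from 0 to 100) by library, for the *Dnmt*, *Tet* and *Idh* genes. Bars are 95% Wilson intervals. The *Tet2* shares of both *BcorΔE9-10* libraries (32.7 and 32.8%) lie below those of the *BcorWT* libraries (38.1 and 40.9%), and the *Idh* shares of the genotypes overlap.

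The wider pathway was taken from 8 lists with 124 genes in the table, none of which had an edgeR adjusted p under 0.05 in either direction. At an unadjusted p under 0.05 there were 2 of 124, against 4.42% of all genes. Among cofactors that target or maintain methylation, 13 of 15 were in the table, with a median log2 fold change of 0.09. The smallest unadjusted p values were those of *Ehmt2*, a histone H3K9 methyltransferase, at 36.8 and 32.9 CPM in *BcorΔE9-10* and 46.1 and 99.4 CPM in *BcorWT* libraries (log2 fold change -1.06, standard error 0.41), and of the corepressor *Trim28* (-0.81, standard error 0.45). Both had their highest level in *BcorWT* replicate 2. All 9 methyl-CpG readers were in the table (median 0.11), with the smallest p for *Mbd6* (-0.86) and *Mbd3* (-0.78). Both stood apart mainly in *BcorWT* replicate 2, *Mbd6* at 47.9 and 51.0 CPM against 59.6 and 119.9 CPM and *Mbd3* at 31.8 and 23.6 CPM against 33.6 and 61.3 CPM. Among Tet partners and recruiters, 10 of 13 (median 0.00), these were *Cxxc5*, a CXXC-domain protein (0.65), and *Spi1*, which encodes the myeloid factor PU.1 (-0.73). *Spi1* was at 171.5 and 163.8 CPM against 153.9 and 400.3 CPM, so that *BcorWT* replicate 1 was the lowest library and replicate 2 alone was high.

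Base excision genes, which remove oxidised or deaminated bases, had 10 of 12 in the table and a median of -0.20, the lowest of the lists. *Tdg*, the glycosylase that acts on products of Tet oxidation, was at 61.4 and 70.6 CPM in *BcorΔE9-10* and 75.1 and 123 CPM in *BcorWT* libraries (log2 fold change -0.59, standard error 0.35), and *Smug1* was at 0.98 on few counts. In the S-adenosylmethionine and folate cycle, which supplies the methyl group, 15 of 16 were in the table (median -0.08), with the smallest p for methionine synthase *Mtr* (-0.99) and the mitochondrial serine hydroxymethyltransferase *Shmt2* (-1.09). Again *BcorWT* replicate 2 stood apart, with *Mtr* at 94.4 and 68.1 CPM against 99.0 and 222.8 CPM and *Shmt2* at 29.4 and 27.7 CPM against 31.0 and 90.5 CPM. All 21 genes of 2-oxoglutarate metabolism were in the table (median 0.03). The mitochondrial citrate carrier *Slc25a1* was at 10.5 and 5.38 CPM against 15.2 and 24.1 CPM (log2 fold change -1.31 with a standard error of 0.48, adjusted p = 0.945 in edgeR), and the transaminase *Got2* had -0.64.

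Genes of S phase are set beside the maintenance pair, whose products act at replication. All 28 were in the table, with a median log2 fold change of 0.10 and sums of 3467 and 2937 CPM in *BcorΔE9-10* and 2961 and 3555 CPM in *BcorWT* libraries. *Slbp*, the histone mRNA binding protein (1.08), and the helicase subunit *Mcm2* (-0.78) had the smallest p. *Slbp* was at 103.9 and 105.8 CPM against 23.9 and 75.1 CPM, lowest in *BcorWT* replicate 1, and *Mcm2* at 97.0 and 117.9 CPM against 122.7 and 245.4 CPM, highest in *BcorWT* replicate 2. All 18 mitosis genes were in the table (median 0.04), with sums of 2599 and 3105 CPM against 2318 and 3322 CPM, and the smallest p for the kinase *Plk1* (-0.92, highest in *BcorWT* replicate 2) and the ubiquitin-conjugating enzyme *Ube2c* (0.58). The groups thus overlapped in both sums.

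**Figure D4:**
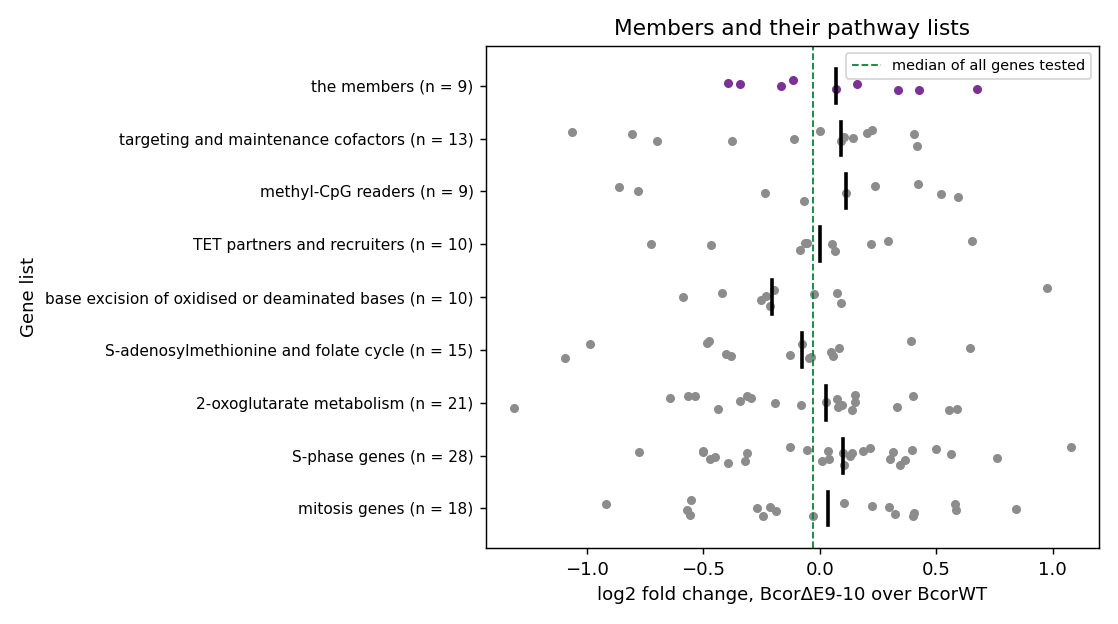
Log2 fold change (*BcorΔE9-10* over *BcorWT*) of the 9 genes described here (purple) and of the genes in 8 pathway and cell cycle lists (grey). Points are genes, black bars list medians and the dashed line the median of all genes tested (-0.03). The list medians lie between -0.20 and 0.11.

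The profiles over the 4 libraries were compared with those of the 124 list genes, as the Euclidean distance between log2 CPM centred on each gene's mean. With 4 libraries that share depth and composition this is a description. *Dnmt1* was closest to the thymidylate synthase gene *Tyms* (0.11 log2 units), *Dnmt3a* to the replication licensing gene *Cdt1* (0.13), *Tet3* to the ribonucleotide reductase gene *Rrm1* (0.14), and *Uhrf1* to the succinate dehydrogenase gene *Sdhb* (0.02). *Dnmt3b* and *Idh2* were both closest to *Parp1* (0.14 and 0.23), and *Tet1* and *Tet2* both to *Mat2b*, which encodes a subunit of methionine adenosyltransferase (0.18 and 0.24). *Mat2b* was at 40.8, 41.6 and 41.5 CPM in the first 3 libraries and at 21.6 CPM in *BcorWT* replicate 2, the same low library as in the *Tet* genes. For *Idh1* the closest was *Cdca7* at 0.28, the most distant of these matches. Among the 9 genes themselves *Dnmt1* and *Uhrf1* were each other's nearest (0.28), as were *Tet1* and *Tet2* (0.34) and *Dnmt3b* and *Idh2* (0.26).

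In GENCODE M21 no other gene had an exon within the last 1000 bases of any of the 9 genes, the end that 3′ reads sample. The last 400 bases of coding transcripts had similar copies, over at least 300 bases, in *Dnmt3a-ps1* for *Dnmt3a* (88.2% identity) and in *Gm15953* for *Uhrf1* (88.5%). Neither is in the table, and how reads shared with them were counted is not given in the sources used here.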

How the data were processed

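Per the study's methods, the authors removed reads of low quality, trimmed the rest with cutadapt and aligned it by HISAT2 to the mm10 genome before gene counting with subread, for which the submitters' processing notes also name featureCounts. The deposited table holds raw counts. Those of BcorΔE9-10 replicate 2 and BcorWT replicate 1 were deposited with non-whole values for *Gm4430* alone and were read as estimated counts, an assumption that was not tested. The filter behind the table and the use of strand are not given in the sources used here.

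Counts were rounded and fitted with edgeR 4.0.16 in R 4.3.3 (filterByExpr, TMM, quasi-likelihood F test, prior count 0.125), *BcorΔE9-10* against *BcorWT*, with Benjamini-Hochberg adjustment over 12067 genes. The standard error was the log2 fold change divided by the square root of F. Profiles used log2 CPM with a prior count of 2. The fits were tested on simulated data. Alternatives used limma 3.58.1 (voom), DESeq2 1.42.0, other scalings and filters, a replicate block and each library left out. Positions came from GENCODE M21.

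The genes and lists were chosen with earlier results of these data known. All 9 genes were named, and from each pathway list those past the threshold or, failing any, the 2 with the smallest unadjusted p.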

Additional observations from a re-analysis of the deposited data

How the results depend on the processing

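None of the 9 genes had an adjusted p under 0.05 in any of the 12 alternatives, in which their adjusted p ranged from 0.0705 to 1.00. Over all genes the number called was 2 with DESeq2's size factors, without *Gm42418*, without a filter and with a prior count of 2. The last 2 settings could not change a call, because the filter removed no gene and the prior count left every p-value as it was. It was 5 with at least 10 counts in every library, 43 with DESeq2, 4 with limma-voom and 6 to 596 with a library left out, the highest without *BcorWT* replicate 1, 34 without *BcorΔE9-10* replicate 2, 30 without *BcorWT* replicate 2 and 6 without *BcorΔE9-10* replicate 1. With the replicate number as a block it was 14, and the labels do not say what the numbers share (correlation of same-numbered deviations -0.094). With a library left out the log2 fold change ranged from -0.51 to 0.12 for *Dnmt3b*, -0.075 to 0.22 for *Uhrf1*, -0.27 to 0.73 for *Tet2* and -0.82 to 0.022 for *Idh2*, and the sign turned without *BcorΔE9-10* replicate 2 for *Dnmt3b* and *Idh2*, without *BcorWT* replicate 1 for *Uhrf1* and without *BcorWT* replicate 2 for *Tet2*. The median over the 9 genes ranged from -0.11 to 0.12 with a library left out and from 0.05 to 0.07 otherwise. *Dnmt1*, *Dnmt3a*, *Tet1*, *Tet3* and *Idh1* kept their sign in all 12 alternatives. The *Idh1* share differed by -9.10 to 9.64 percentage points and the *Dnmt1* share by -4.45 to -1.19 with a library left out. With 2 libraries per genotype the spread within a genotype rests on a single difference, and the 95% intervals of the 9 genes reach from 0.436-fold (*Idh2*) to 2.91-fold (*Tet3*). *Tet1* had the fewest counts, 35 to 73 per library.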
